A study of Mus musculus with 12 samples.

Results

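The response to transforming growth factor β (TGFβ) was measured in mouse tubular epithelial cells labelled as overexpressing Nnmt, the gene for nicotinamide N-methyltransferase. The response was taken as the difference between 3 libraries of TGFβ-treated cells and 3 libraries of untreated cells of the same label, chosen by their sample labels. These are 6 of the 12 libraries in the study. The treated cells had TGFβ at 10 ng/mL for 48 h. The other 6 libraries came from mock-transduced cells, 3 with TGFβ on the same schedule and 3 without. All 4 groups used the same conditionally immortalised line, which carries an SV40 large T antigen. The line was kept at 33 °C with interferon γ at 10 ng/mL, then moved to 37 °C without interferon γ for 7 days before seeding. Its medium held 10% serum, insulin, transferrin, selenite, triiodothyronine, hydrocortisone and epidermal growth factor at 20 ng/mL, per the labels. The promoter of the Nnmt construct, the transduction vector and the number of clones were not given in the sources used here. The labels do not say whether replicates came from different cultures. The p-values below therefore reflect variation among libraries that could be purely technical.

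TGFβ binds a pair of receptor kinases that phosphorylate SMAD2 and SMAD3, which join SMAD4 and act in the nucleus on target genes. In kidney tubule cells grown in culture, TGFβ is widely used as a model of fibrotic change, in which actin-based contractile genes and matrix genes go up and epithelial genes go down. The same cytokine also acts on inhibitors of its own pathway, and on Id genes, which are otherwise driven by bone morphogenetic proteins (BMPs).

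Nnmt itself is the check of the label. In libraries labelled Nnmt-OE it stood at 33.9, 22.5 and 26.3 CPM (counts scaled to the library size) with TGFβ, against 24.5, 28.5 and 22.9 CPM without. The groups overlapped, with a log2 fold change of 0.12 ± 0.21 (SE) and an edgeR adjusted p of 0.9. In mock cells Nnmt averaged 30.3 ± 2.8 CPM with TGFβ and 20.3 ± 3.8 CPM without (SD, n = 3 each). The assay reads only the 3′ ends of transcripts. Whether the construct carries the native 3′ end is not given in the sources used here, so the cells are called labelled Nnmt-OE throughout.

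Reads assigned to genes ran from 4845677 to 6753611 in the 6 libraries. Treated replicate 3 stood apart from the other libraries on the third principal component (11.7% of the variance). The share of reads on cytosolic ribosomal protein genes was 1.03 to 1.07% with TGFβ and 0.87 to 0.99% without, that on mitochondrially encoded genes was 6.05 to 6.42% with TGFβ and 6.63 to 6.90% without, and the share of reads assigned to no gene was 26.9 to 27.2% with TGFβ and 27.3 to 28.8% without. Of 8 tubular epithelial markers, Pax2, Pax8, Krt8 and Cdh16 were among those counted in every library, Krt18 had 12 counts in all, and Epcam and Cdh1 had 0 counts in all 6 libraries. Of 8 proximal tubule markers, Lrp2 and Aqp1 were well counted, while Slc34a1, Slc22a6 and Hnf4a had 0 counts. All 4 endothelial markers, Ptprc and Adgre1 of 4 leukocyte markers, and Pdgfra, Lum and Col3a1 of 6 fibroblast markers had 0 counts. The summed fibroblast markers stood at 9.42 to 14.5 CPM with TGFβ, 9.17 to 13.5 CPM of it Col1a1, and at 1.47 to 8.04 CPM without, 1.03 to 5.54 CPM of it Col1a1 and up to 2.50 CPM Pdgfrb. Summed leukocyte markers stood at 73.2 to 87.8 CPM with TGFβ and 74.3 to 87.1 CPM without. Of this sum, Csf1r was 66.4 to 80.3 CPM with TGFβ and 67.4 to 73.7 CPM without, and Cd68 was the rest. Summed podocyte markers stood at 212 to 240 CPM with TGFβ and 205 to 244 CPM without. The library codes of treated and untreated samples do not interleave, so a difference in handling cannot be told apart from TGFβ. In bulk RNA, fewer cells of a type and less RNA per cell cannot be told apart either.

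Of 12897 genes with enough counts to test, 180 passed an adjusted p of 0.05 (1.4%) in edgeR's quasi-likelihood test. TGFβ-treated cells had 84 of them higher (0.651%) and 96 lower (0.744%), and 12 of the higher (0.093%) and 17 of the lower genes (0.132%) were past 2-fold. At an unadjusted p under 0.05 there were 1426 genes (11.1%). The 3 treated values and the 3 untreated values did not overlap for any of the 180, which also held for 17.5% of all genes tested. Lack of overlap, where given below for a called gene, therefore adds nothing to its call. The count of 180 became 109, 123 and 97 without untreated replicate 1, 2 or 3, and 104, 99 and 104 without treated replicate 1, 2 or 3. Of the 180 calls, 56 held in all 6 of these fits, 28 higher and 28 lower with TGFβ. Genes described below as steady are among those 56. For other named genes that were called, either the highest adjusted p among the 6 fits, with the library left out, or the number of fits that kept the call is given. Over all genes tested the median log2 fold change was -0.002 and the median absolute value 0.19. Shares called in the gene lists below are to be read beside the 1.4% over all genes tested. The lists were chosen with earlier results of these data known, so a higher share is no test of a list.

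**Figure D1:**
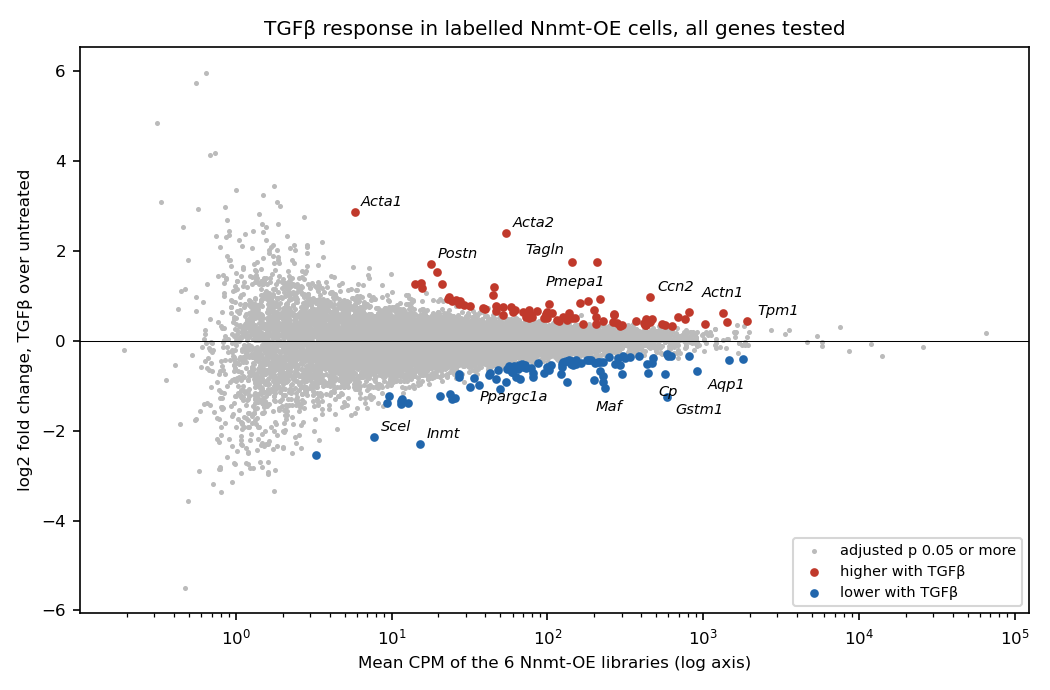
The log2 fold change of TGFβ-treated over untreated labelled Nnmt-OE cells is plotted against the mean CPM of the 6 libraries (log axis), 1 point a gene, for 12897 genes. The 84 genes higher with TGFβ (red) reach 2.87 at Acta1, and those lower (blue) include Inmt at -2.29. Points at low CPM spread far from 0 without being called.

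Contractile genes gave the 3 largest rises among called genes at 10 CPM or more. Acta2, the smooth muscle actin used as the marker of myofibroblasts, had 109.7, 76.7 and 88.4 CPM in treated libraries, against 18.4, 15.7 and 18.1 CPM in untreated ones. Tagln, an actin-binding protein of smooth muscle, had 236, 216.5 and 210.2 CPM with TGFβ, against 77.9, 63.7 and 54.7 CPM without. Acta1, the skeletal muscle actin, had 16.5, 8.48 and 5.63 CPM with TGFβ, against 1.07, 1.61 and 1.46 CPM without. Every treated library lay above every untreated one for these genes, as their choice among the largest changes required. The 3 treated values of Acta1 spread the most. The log2 fold changes were 2.40 ± 0.18 for Acta2 (5.27-fold, edgeR adjusted p = 8.83e-13), 1.76 ± 0.12 for Tagln (3.38-fold, edgeR adjusted p = 1.93e-13) and 2.87 ± 0.51 for Acta1 (7.29-fold, edgeR adjusted p = 0.00049). All 3 were steady.

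Of 43 genes listed for actin, myosin and contraction, 37 were tested, 9 rose and 1 fell. That is 27% called, against 1.4% of all genes tested, with a median log2 fold change of 0.22 and 32 positive values. Smaller rises at high counts came from Actn1, an actin cross-linker (0.61, with 1601, 1615 and 1653 CPM against 1162, 1014 and 1011 CPM), from Tpm1, a tropomyosin (0.43), and from Tagln2 (0.53), all steady. Csrp1 (0.66) and Pdlim7 (0.52), LIM domain proteins of actin filaments, and Tnnt2, the cardiac troponin T (0.83), rose as well, and their calls held in 2, 3 and 1 of the 6 fits without 1 library. Mylk, the myosin light chain kinase that starts smooth muscle contraction, went the other way, with 235.2, 225.5 and 255.8 CPM in treated libraries and 327.7, 349.3 and 369.6 CPM in untreated ones (-0.55 ± 0.09, edgeR adjusted p = 0.000307, steady). Others of the list did not pass, among them Cnn1 (0.38), Vim (0.02), Myh9 (0.13), Actb (0.32) and Srf (0.29), the transcription factor that binds CArG boxes in actin genes.

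The RefSeq table held 10 windows for 8 of the 9 risen contractile genes, and 6 are shown, those with a match to any of 3 motifs and that of Actn1, which has none. Tagln is named only. The windows run from 250 bases before to 50 bases after the annotated start and come from RefSeq (GRCm38.p6). Capitals mark a CArG box in its strict form, with only A or T at its centre, the SMAD-binding motif CAGACA and the TEAD-binding motif GGAATG, searched on both strands, and the marked matches do not overlap. The windows shown are those of Acta1 (chr8:123894726-123895025, minus strand), Acta2 (chr19:34255324-34255623, minus strand), Tpm1 (chr9:67049164-67049463, minus strand), Tagln2 (chr1:172499996-172500295, plus strand), Tnnt2 (chr1:135836084-135836383, plus strand) and Actn1 (chr12:80260314-80260613, minus strand).
Acta1: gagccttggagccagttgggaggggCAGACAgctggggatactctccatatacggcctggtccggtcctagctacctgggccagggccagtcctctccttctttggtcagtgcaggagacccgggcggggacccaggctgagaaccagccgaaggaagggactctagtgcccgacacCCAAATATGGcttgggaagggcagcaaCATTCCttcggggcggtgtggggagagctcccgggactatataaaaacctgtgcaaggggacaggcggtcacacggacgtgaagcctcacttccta
Acta2: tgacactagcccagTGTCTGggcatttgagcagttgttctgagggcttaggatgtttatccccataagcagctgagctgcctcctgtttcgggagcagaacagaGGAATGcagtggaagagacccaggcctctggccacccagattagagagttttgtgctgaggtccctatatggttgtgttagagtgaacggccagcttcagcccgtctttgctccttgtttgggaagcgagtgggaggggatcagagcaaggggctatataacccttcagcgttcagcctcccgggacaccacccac
Tpm1: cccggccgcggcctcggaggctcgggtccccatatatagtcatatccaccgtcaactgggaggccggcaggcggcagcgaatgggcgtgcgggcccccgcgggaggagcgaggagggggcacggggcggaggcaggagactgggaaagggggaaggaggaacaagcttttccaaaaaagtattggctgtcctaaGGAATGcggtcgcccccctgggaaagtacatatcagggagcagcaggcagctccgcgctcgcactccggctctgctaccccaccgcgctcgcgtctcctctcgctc
Tagln2: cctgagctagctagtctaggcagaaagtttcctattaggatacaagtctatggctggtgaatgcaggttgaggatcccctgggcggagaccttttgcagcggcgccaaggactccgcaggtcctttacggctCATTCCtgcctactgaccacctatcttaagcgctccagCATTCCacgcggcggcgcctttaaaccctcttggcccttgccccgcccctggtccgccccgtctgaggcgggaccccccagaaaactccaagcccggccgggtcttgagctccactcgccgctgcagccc
Tnnt2: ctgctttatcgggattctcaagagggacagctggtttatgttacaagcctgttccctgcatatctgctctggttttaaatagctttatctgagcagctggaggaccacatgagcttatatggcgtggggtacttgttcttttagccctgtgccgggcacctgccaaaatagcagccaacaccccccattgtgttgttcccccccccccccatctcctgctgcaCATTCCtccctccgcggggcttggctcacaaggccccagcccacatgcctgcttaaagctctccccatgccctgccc
Actn1: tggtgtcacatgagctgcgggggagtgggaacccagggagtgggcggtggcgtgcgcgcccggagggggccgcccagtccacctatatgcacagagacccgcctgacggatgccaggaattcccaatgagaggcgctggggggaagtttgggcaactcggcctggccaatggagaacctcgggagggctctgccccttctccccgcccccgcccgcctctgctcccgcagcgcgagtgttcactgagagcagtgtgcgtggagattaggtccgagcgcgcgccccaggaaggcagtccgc

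Of the 10 windows, 5 held a match. That of Acta1 held all 3 motifs, with the CArG box at base -73 from the start. The Acta2 window held CAGACA (read on the opposite strand) and GGAATG, and those of Tpm1, Tagln2 and Tnnt2 held GGAATG alone. The windows of Actn1 and Pdlim7, both of Csrp1 and the other of Tnnt2 held none. A looser CArG box, with 1 G or C at its centre, was counted after the windows had been seen. It occurred 2 times each in the Acta1 and Acta2 windows, in none of the other 8, and in 8.5% of all windows of the table. Among 95 windows of the 64 risen genes with an entry, 3 held a CArG box (3.16%), 22.1% held CAGACA and 12.6% held GGAATG. Among 92 windows of 75 fallen genes the shares were 0, 18.5 and 17.4%. The 11452 windows of all genes tested gave 1.29, 15.4 and 12%, and all 32851 windows in RefSeq's table gave 1.63, 21 and 14.7%. These matches describe letters in a window and are not evidence of binding.

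In the TGFβ pathway, 3 secreted regulators rose, while the type I, II and III receptor genes of TGFβ did not pass the threshold. Of 15 tested ligand, latency and activation genes, 3 rose and 1 fell (26.7% called, median 0.05). Fstl1, a secreted follistatin-like glycoprotein, had 1019, 915.6 and 1040 CPM with TGFβ, against 669.1, 572.5 and 663.5 CPM without (0.64 ± 0.08, edgeR adjusted p = 2.27e-06). Inhba, which encodes the activin A subunit, had 121.1, 125 and 144.9 CPM with TGFβ, against 75.6, 77.6 and 68.2 CPM without (0.82 ± 0.12, edgeR adjusted p = 2.02e-05). Thbs1, a matrix protein that can activate latent TGFβ, rose by 0.49 (edgeR adjusted p = 0.000438), and these 3 genes were steady with no overlap of groups. Ltbp3, a latent TGFβ binding protein, fell by 0.45 (edgeR adjusted p = 0.0395, and up to 0.293 without treated replicate 2).

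Of 26 tested receptors, SMADs and co-regulators, 1 rose and 1 fell (7.69% called, median -0.02). Pmepa1, a membrane protein that holds back SMAD signalling, had 281, 304.1 and 269.6 CPM with TGFβ, against 139.7, 147.9 and 158.6 CPM without. It rose by 0.94 ± 0.10 on the log2 scale (1.92-fold, edgeR adjusted p = 2.01e-08, steady). Smad3, a signal carrier of the pathway, fell by 0.44 (edgeR adjusted p = 0.0427), and its call ended without any single library, with p up to 0.21 without treated replicate 2. The inhibitor Smad7 (0.21) and the receptors Tgfbr1 (-0.63), Tgfbr2 (-0.14) and Tgfbr3 (-0.83) did not pass.

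Among 34 tested target genes of TGFβ, 5 rose and 1, Ltbp3, fell (17.6% called, against 1.4% of all genes tested, median 0.08). Pdgfb, a growth factor for mesenchymal cells, had 351.4, 303.9 and 309.2 CPM in treated libraries, against 205.8, 208.2 and 223.7 CPM in untreated ones. The groups did not overlap, and the rise was 0.60 ± 0.09 (1.51-fold, edgeR adjusted p = 8.05e-05, steady). Targets short of the threshold included Skil (0.31), Junb (0.25), Klf10 (-0.11) and the kinase inhibitor gene Cdkn1a, which had 1857, 1794 and 1760 CPM with TGFβ and 1997, 1748 and 2015 CPM without.

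On the BMP side, 0 of 22 tested genes rose in edgeR (0 also at an unadjusted p under 0.05, in DESeq2 and in limma-voom). The 2 that fell were Id2 and Id4, inhibitors of basic helix-loop-helix factors (9.09% called). The list had a median of -0.14 and 4 positive values. Id2 had 359.5, 347 and 364.7 CPM with TGFβ, against 524.9, 473.8 and 541 CPM without (-0.52 ± 0.09, edgeR adjusted p = 0.000471, steady). Id4 had 16.2, 21.8 and 25 CPM with TGFβ, against 37.7, 32.9 and 57.4 CPM without (-1.02 ± 0.25, edgeR adjusted p = 0.0368, up to 0.217 without untreated replicate 3). The groups did not overlap for either gene. Id1 (-0.06) and Id3 (-0.06) did not pass.

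All 4 tested genes of the CCN family, matricellular proteins between the matrix and cell surface receptors, rose, with a median of 0.81. Over all genes tested 0.651% rose. Ccn4 was steady, with 254.9, 267.2 and 212.7 CPM in treated libraries and 157.2, 155.2 and 143.6 CPM in untreated ones (0.69 ± 0.10, edgeR adjusted p = 3.29e-05). Ccn2, also known as connective tissue growth factor, had 618.6, 629.3 and 556.9 CPM with TGFβ, against 315.7, 335 and 263 CPM without (0.98 ± 0.18, edgeR adjusted p = 0.0275). The call of Ccn2 was lost in 5 of 6 fits without 1 library, with an edgeR adjusted p up to 0.107 without treated replicate 2. Ccn5 rose by 0.94 (edgeR adjusted p = 0.0308, up to 0.264 without treated replicate 1) and Ccn1 by 0.38 (edgeR adjusted p = 0.00607, up to 0.0874 without treated replicate 2).

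**Figure D2:**
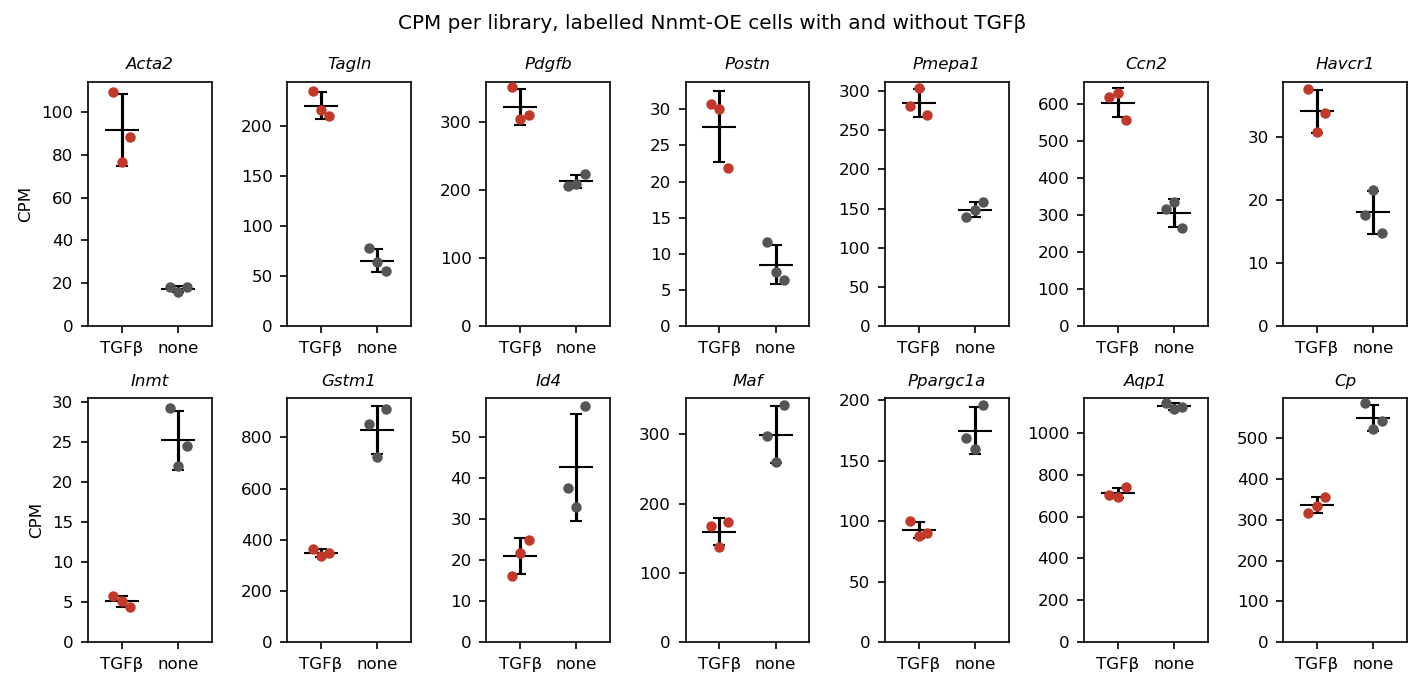
CPM per library is plotted for 14 genes in labelled Nnmt-OE cells, with TGFβ on the left (red) and without on the right (grey), and the mean ± SD of 3 libraries in black. In each panel the groups do not overlap, which held for all 180 called genes. Examples are Pdgfb (304 to 351 CPM treated, 206 to 224 CPM untreated) and Gstm1 (335 to 364 CPM treated, 725 to 911 CPM untreated).

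Matrix genes did not move as 1 group. Of 28 tested non-collagen glycoproteins, 3 rose and 4 fell (25% called, against 1.4% of all genes tested, median 0.06). Postn, which encodes the matricellular protein periostin, had 30.7, 30.1 and 21.9 CPM with TGFβ, against 11.6, 7.48 and 6.40 CPM without (1.70 ± 0.28, edgeR adjusted p = 0.000163, steady). Fn1, fibronectin, rose by 0.36 (edgeR adjusted p = 0.0214), and its call ended without any single library, with p up to 0.135 without treated replicate 3. Abi3bp, a matrix protein, had 19.8, 11.9 and 12.9 CPM with TGFβ, against 32, 32.3 and 43.5 CPM without (-1.26 ± 0.23, edgeR adjusted p = 0.000965, steady). Sned1, another matrix protein, fell by 1.18 (edgeR adjusted p = 0.00331, and 0.0611 without untreated replicate 2). Ecm1 fell by 0.45 (edgeR adjusted p = 0.0195, up to 0.194 without treated replicate 1) and Spp1, osteopontin, by 0.33 (edgeR adjusted p = 0.0284, up to 0.159 without treated replicate 2).

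Of 29 tested genes for collagens and their processing, 0 passed in edgeR (median 0.07), with 10 at an unadjusted p under 0.05, 3 called by DESeq2 and 0 by limma-voom. Collagen Col1a1 had 9.42, 13.5 and 9.17 CPM with TGFβ, against 5.54, 1.03 and 4.02 CPM without (1.62 ± 0.49, edgeR adjusted p = 0.0898), and Serpinh1, the collagen chaperone, stood at 0.30 (edgeR adjusted p = 0.0836). The treated values of Col1a1 all lay above the untreated ones, and 17.5% of all genes tested had no overlap in either direction. Of 15 alternatives, 4 called Col1a1 and 3 called Serpinh1. Among 26 tested metalloproteinase and plasminogen genes, 2 rose and 1 fell (11.5% called, median 0.18). Timp3, a metalloproteinase inhibitor, rose by 0.37 (edgeR adjusted p = 0.0106, up to 0.116 without treated replicate 3). Plat, the tissue plasminogen activator, fell by 0.69 (edgeR adjusted p = 0.0195, up to 0.159 without treated replicate 2). Of 12 tested integrin subunits, Itga1, a collagen-binding one, fell (-0.51, edgeR adjusted p = 0.0051, steady).

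Most renal epithelial transcription factors and related genes had negative values. Of 17 tested, 0 rose in edgeR (0 also at an unadjusted p under 0.05, in DESeq2 and in limma-voom) and 4 fell. That is 23.5% called, against 1.4% of all genes tested, with a median of -0.23 and 3 positive values. Maf had 168.2, 137.6 and 172.9 CPM in treated libraries, against 296.6, 259.3 and 341.7 CPM in untreated ones (-0.91 ± 0.11, edgeR adjusted p = 1.18e-06). Ppargc1a, the coactivator PGC-1α that drives mitochondrial biogenesis, had 99.8, 87.8 and 90.5 CPM with TGFβ, against 168.5, 159.4 and 196.2 CPM without (-0.91 ± 0.13, edgeR adjusted p = 6.32e-06). Both were steady, and no treated library reached the lowest untreated one. Cdh16, the kidney-specific cadherin, fell by 0.58 (edgeR adjusted p = 0.0122, up to 0.107 without treated replicate 2) and Tfcp2l1, a collecting duct factor, by 0.44 (edgeR adjusted p = 0.0214, up to 0.164 without treated replicate 1).

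Of 10 tested proximal tubule genes, Aqp1, the water channel of the proximal tubule, fell, with 701.3, 693.5 and 740.2 CPM in treated libraries and 1142, 1112 and 1121 CPM in untreated ones (-0.66 ± 0.08, edgeR adjusted p = 9.52e-07, steady). Another 35 genes of that list were under the count filter. None of 30 tested junction and keratin genes passed in edgeR (median -0.03), with 3 at an unadjusted p under 0.05 and 0 in DESeq2 and limma-voom. Among them were Perp (-0.26) and Pard6b (-0.62). Among 14 tested genes of epithelial-mesenchymal transition, Cdh16 alone passed, while Zeb1 (-0.16), Zeb2 (0.17), Twist1 (0.16) and Cdh2 (0.13) did not. Of 28 tested genes of tubular injury and repair, 5 rose and 1 fell (21.4% called, against 1.4% of all genes tested, median 0.04). Havcr1, the injury marker KIM-1, had 37.7, 30.8 and 33.8 CPM with TGFβ, against 17.7, 21.6 and 14.8 CPM without (0.91 ± 0.22, edgeR adjusted p = 0.0169, up to 0.153 without untreated replicate 3). Csf1, a macrophage growth factor, rose by 0.43 (edgeR adjusted p = 0.00408, and 0.052 without untreated replicate 1).

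Detoxification and small-molecule enzymes were among the largest falls. Inmt, a methyltransferase of the same family as Nnmt that acts on indolamines, had 5.79, 5.19 and 4.38 CPM in treated libraries, against 29.3, 22 and 24.5 CPM in untreated ones. Gstm1, a glutathione transferase, had 364.1, 335.4 and 348.6 CPM with TGFβ, against 850.8, 725.1 and 911.4 CPM without. Ptgds, a prostaglandin D synthase, had 15, 13 and 14.6 CPM with TGFβ, against 35.9, 31.4 and 37.7 CPM without. Lack of overlap was required of these genes as largest falls. The log2 changes were -2.29 ± 0.31 for Inmt (edgeR adjusted p = 3.27e-06), -1.25 ± 0.09 for Gstm1 (edgeR adjusted p = 6.97e-13) and -1.30 ± 0.20 for Ptgds (edgeR adjusted p = 5.64e-05), all steady.

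Of 53 tested NRF2, antioxidant and glutathione transferase genes, 1 rose and 5 fell (11.3% called, against 1.4% of all genes tested, median -0.02). Gstm2 fell by 0.85 (edgeR adjusted p = 0.00012, steady), while Gsto1, an omega-class transferase, rose by 0.51 (edgeR adjusted p = 0.00582, up to 0.0702 without untreated replicate 3). Gstm1 and Gstm2 belong to a cluster of closely similar genes, so their split of reads is uncertain. Of 40 tested methyl cycle and methyltransferase genes, 0 rose in edgeR (8 at an unadjusted p under 0.05, 1 in DESeq2 and 0 in limma-voom). Inmt was among the 2 that fell (5% called, median 0.06). Ppargc1a was the 1 gene called among 39 tested for fatty acid oxidation (2.56%, against 1.4% of all genes tested). It was also the 1 called among 25 tested for NAD metabolism (4%). The medians of these lists were -0.16 (9 positive values) and -0.14. The share of mitochondrially encoded reads was also lower with TGFβ, and its part in these values was not tested. Of 17 tested complement and acute-phase genes, Cp, ceruloplasmin, fell, with 316, 333.3 and 355.3 CPM with TGFβ and 583.4, 521.2 and 541.2 CPM without (-0.71 ± 0.09, edgeR adjusted p = 5.71e-07, steady). Ndrg1, a stress and hypoxia gene, fell by 0.74 (edgeR adjusted p = 3.77e-05, steady).

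Of 51 tested immediate-early and MAP kinase feedback genes, 1 rose and 4 fell (median -0.11). That is 9.8% called, against 1.4% of all genes tested, in a list chosen with earlier results of these data known. Egr1, a zinc finger factor induced by growth factors, had 149.1, 163.2 and 188.3 CPM with TGFβ, against 279.8, 267.6 and 252.4 CPM without (-0.68 ± 0.10, edgeR adjusted p = 5.1e-05). Trib1, a pseudokinase, had 76.4, 84.3 and 80.9 CPM with TGFβ, against 114, 134.2 and 127.5 CPM without (-0.64 ± 0.13, edgeR adjusted p = 0.00265). Both were steady and without overlap. Dusp6, the ERK phosphatase, fell by 0.52 (edgeR adjusted p = 0.00539, and 0.0726 without treated replicate 3). Of 39 tested p53 and arrest genes 0 rose in edgeR (0 also at an unadjusted p under 0.05, in DESeq2 and in limma-voom). The 2 that fell (5.13%) were Trp53inp1 (-0.52) and Eda2r (-0.50), each kept in 1 of the 6 fits without 1 library. The list median was -0.20, with 10 positive values. Of 58 cell cycle genes 1 fell (1.72%, near the 1.4% of all genes tested). It was Ccnd1, which encodes cyclin D1 (-0.34, edgeR adjusted p = 0.0174, up to 0.159 without treated replicate 2). Semaphorin Sema3c, a guidance cue, fell by 1.07 (edgeR adjusted p = 2.55e-05, steady), as did Rora, a nuclear receptor of the clock, by 0.70 (edgeR adjusted p = 0.000985, steady). Of 41 tested genes of the YAP and TEAD pathway 2 rose, Ccn1 and Ccn2, and 1 fell (7.32% called). Of 35 secretory genes of senescence 3 rose and 2 fell (14.3%), and of 33 glycolysis and hypoxia genes 2 fell (6.06%). Of 36 growth factor and receptor genes 1 rose, Pdgfb (2.78% called). Of 47 interferon genes 1 rose (2.13%), Isg15 (0.64, edgeR adjusted p = 0.0382, up to 0.299 without untreated replicate 3). Both shares were near the 1.4% of all genes tested. Lists with 0 calls in edgeR included collagens, junctions, sterol synthesis (41 tested), Notch and Wnt (30) and the unfolded protein response (30). The last 3 had 7, 4 and 2 genes at an unadjusted p under 0.05, and DESeq2 and limma-voom called 0 in each. Fibroblast, endothelial, leukocyte and podocyte markers and mitochondrially encoded transcripts also had 0 calls in edgeR. Of 3 tested fibroblast markers, 2 had an unadjusted p under 0.05 in edgeR, DESeq2 called 1 and limma-voom called 0. Among 77 tested ribosomal protein genes 3 rose (3.9%) and the median was 0.21, beside the higher ribosomal share of treated libraries given above. Whether that share bears on the other calls was not tested.

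**Figure D3:**
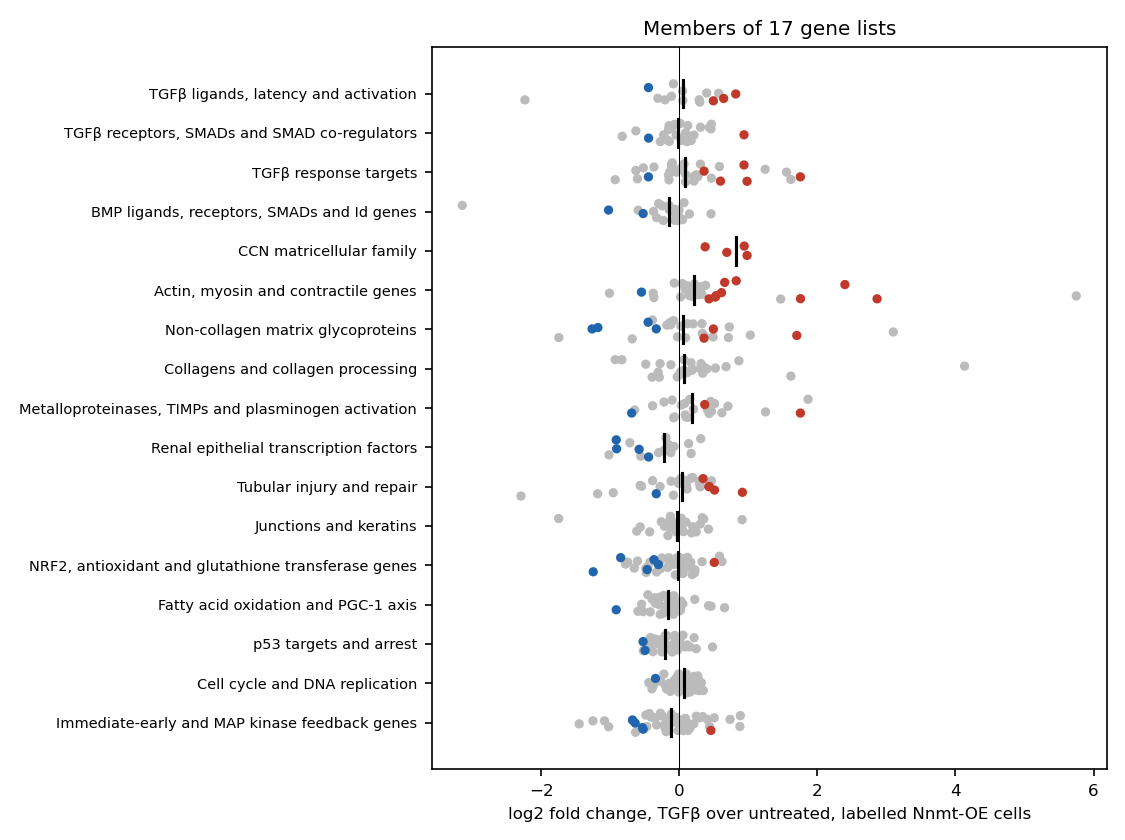
Each point is 1 tested member of 17 gene lists, placed by its log2 fold change of TGFβ over untreated in labelled Nnmt-OE cells. Red points rose, blue points fell, grey points did not pass, and the bar is the list median, from -0.23 for renal epithelial factors to 0.81 for the CCN family.

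Other genes named by the size of their change covered several functions. Among rises, Cpne8, a copine, had 22, 30.1 and 34.6 CPM with TGFβ and 11.3, 8.66 and 10.1 CPM without (1.53). Sorbs2, an adaptor of actin stress fibres, had 58, 61.4 and 70.3 CPM with TGFβ and 26.4, 28.6 and 26.9 CPM without (1.21). Siglecg, a sialic acid-binding lectin (1.26), and Ccbe1, a secreted protein of lymphatic development (1.01), were steady too, as were Cpne8 and Sorbs2. Cyp1b1, a cytochrome P450 (1.29, edgeR adjusted p = 0.00621, up to 0.089 without untreated replicate 3), Fam198b (1.28, edgeR adjusted p = 0.0293, up to 0.135 without treated replicate 2) and Ebf1, a transcription factor (1.18, edgeR adjusted p = 0.0146, up to 0.11 without untreated replicate 3), rose less firmly. Plcd4, a phospholipase C, fell by 1.22 and was steady. App, the amyloid precursor protein, fell by 0.42, with 1217, 1209 and 1319 CPM with TGFβ and 1637, 1590 and 1791 CPM without, and was steady.

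Several large falls rested on low counts. Scel, a protein of the cornified envelope, had 3.80, 3.98 and 0.626 CPM with TGFβ, against 10.4, 7.63 and 20.1 CPM without (-2.13, edgeR adjusted p = 0.00901, up to 0.178 without untreated replicate 3). Agt, angiotensinogen, had 7.60, 8.65 and 3.13 CPM with TGFβ, against 19.5, 16.4 and 13.5 CPM without (-1.33, edgeR adjusted p = 0.0316, up to 0.236 without treated replicate 3). Lbp, the lipopolysaccharide-binding protein (-1.39, edgeR adjusted p = 0.0331, up to 0.203 without untreated replicate 3), Il17rb, a receptor subunit for interleukin 25 (-1.39, edgeR adjusted p = 0.0132, up to 0.106 without treated replicate 1), and Trim12c (-1.29, edgeR adjusted p = 0.0302, up to 0.209 without untreated replicate 1) behaved likewise. Apln, apelin, sat at the threshold (-1.23, edgeR adjusted p = 0.04997, up to 0.184 without untreated replicate 3).

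The same treatment in mock cells called 184 genes (1.43%), 86 higher (0.667%) and 98 lower (0.76%), from treated and untreated libraries of their own. Of the 180 genes called in labelled Nnmt-OE cells, 90 were also called in mock, all in the same direction (42 higher, 48 lower). That is 50% of the labelled Nnmt-OE calls and 48.9% of the mock calls. Of the 180, 176 had the same sign in mock (97.8%). The 4 others were Vldlr, Dars, Abcg2 and Gm5514, named after their values were seen. None of these 4 passed in mock in edgeR (unadjusted p from its model 0.463 to 0.982, log2 fold changes -0.13 to 0.21), and each kept its call in labelled Nnmt-OE cells in 1 of the 6 fits without 1 library. Genes called in labelled Nnmt-OE cells had a median absolute log2 fold change of 0.60 there and 0.49 in mock, and genes called in mock had 0.47 in labelled Nnmt-OE cells and 0.64 in mock. Each set was larger in the cells that chose it. Across all 12897 genes tested, log2 fold changes in the 2 kinds of cells correlated at a Pearson r of 0.23. For the 9125 genes at 10 CPM or more it was 0.44.

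The difference between the responses was tested gene by gene as an interaction, and 0 genes passed in edgeR (501 at an unadjusted p under 0.05, 3.88%). DESeq2 and limma-voom also called 0, with 561 and 513 at that level. Tagln had one of the smallest p values, with a log2 rise of 1.76 in labelled Nnmt-OE cells and 1.12 in mock (interaction 0.64 ± 0.17, unadjusted p from edgeR's model 0.000591, edgeR adjusted p = 0.999). Arntl, the clock gene Bmal1, stood at -0.41 in labelled Nnmt-OE cells and 1.23 in mock (unadjusted p from edgeR's model 0.00037, edgeR adjusted p = 0.999). Tmem230 (0.70 and -0.87) and Cltb, a clathrin light chain (0.50 and -0.20), were the other genes named by that rule. Acta2 had 2.40 in labelled Nnmt-OE cells and 1.96 in mock, a difference of 0.44 with a 95% interval of -0.08 to 0.95. Inmt had -2.29 in labelled Nnmt-OE cells and -2.28 in mock. A gene called in one kind of cell and not in the other is therefore not shown to differ between them.

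**Figure D4:**
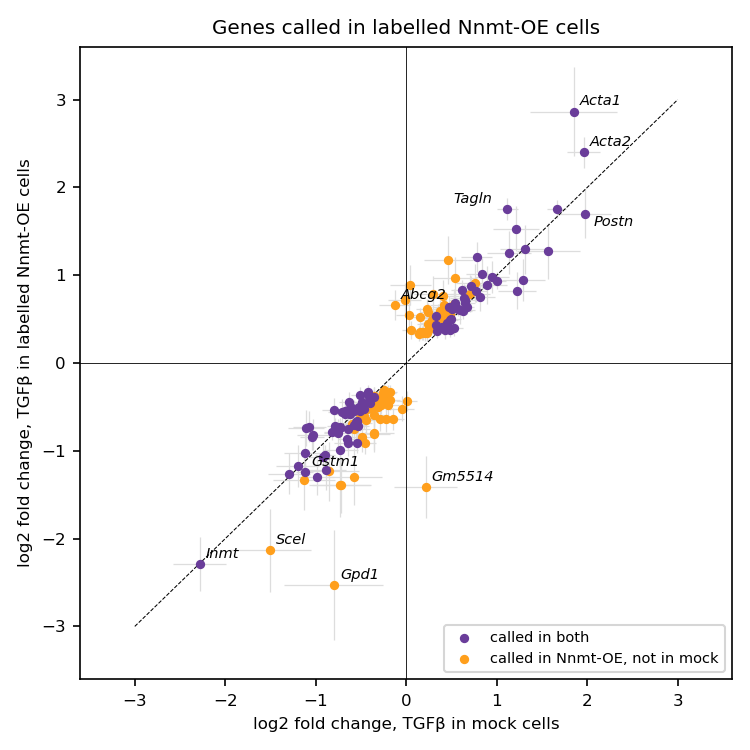
Each point is 1 of the 180 genes called in labelled Nnmt-OE cells, with its log2 fold change there (vertical) against that in mock cells (horizontal), ± SE in grey, and a dashed line of equality. Purple points (90) were called in both and orange points (90) in labelled Nnmt-OE cells but not in mock, with 176 of 180 on the same side of 0.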

How the data were processed

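Counts were deposited as whole reads per gene in 1 table of 12 libraries, 55487 genes identified by Ensembl mouse IDs. Per the labels' protocols, 100 ng of RNA went into QuantSeq 3′ libraries, which count 1 stretch near the transcript end, so counts were not divided by gene length. Per the submitters' processing notes the tools were STAR and HTSeq (versions not given in the sources used here). The notes name the human build GRCh38 although the IDs are mouse, and no source used here gives the mouse build, annotation or strand setting, so overlapping and antisense genes cannot be separated. Symbols came from GENCODE M21 (55141 IDs matched, 99.4%). Reads assigned to no gene (26.4 to 28.8% per library) and ambiguous reads stayed out of library sizes.

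All 12 libraries (4733846 to 7247413 reads in genes) entered 1 edgeR 4.0.16 fit under R 4.3.3, with 4 group means, filterByExpr (minimum count 10, minimum total 15), TMM scaling and the robust quasi-likelihood test, with Benjamini-Hochberg adjustment over 12897 genes at 0.05. CPM are per library. Errors of CPM are SD over 3 libraries and those of log2 fold changes are SE. For genes at 10 CPM or above, the median half-width of the 95% interval was 0.35 on the log2 scale. Counts for TGFβ in labelled Nnmt-OE cells were simulated in 1 set over 12897 genes. There the test recovered 30.2% of 63 genes changed 1.5-fold, 66.2% of 68 changed 2-fold and 78.3% of 69 changed 4-fold. Of its calls, 5.6% were false. Intervals cover counting error and the spread of these libraries only.

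The members and the 41 gene lists (1430 genes, 1009 tested) were chosen with earlier results of these data known. Genes are named by a rule: Nnmt, the 12 largest rises and falls among called genes with 10 CPM or more in the higher group and no overlap, up to 6 called members of a list by smallest adjusted p (with 2 members at the smallest p where fewer than 2 were called), the 3 called genes of highest CPM in each direction and the 4 smallest interaction p-values at 10 CPM or more. Other members of a list are given as examples. A few genes within this rule are not reported here. Alternatives were DESeq2 1.42.0, limma-voom 3.58.1, other scalings and filters, a replicate block, the 2 groups alone and fits without 1 library.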

Additional observations from a re-analysis of the deposited data

How the results depend on the processing

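No call in labelled Nnmt-OE cells changed sign under 15 alternatives, and 56 of the 180 calls held under all of them, 28 higher and 28 lower. The count of 180 was 295 in DESeq2 and 351 when the 2 groups were fitted alone, and for mock cells 184 became 306 and 92. Without 1 library it ran from 97 to 123 in labelled Nnmt-OE cells and from 98 (without mock treated replicate 2) to 188 in mock, with 115 without mock treated replicate 1. In labelled Nnmt-OE cells it was 178 with RLE scaling, 190 with library totals, 167 in limma-voom, 231 without a filter, 181 with a stricter filter and 260 without the 3 libraries that stand apart on principal components (chosen after earlier results were known). The cause of these shifts was not tested. The interaction called 0 genes in every setting. With a replicate block the counts were 168 in labelled Nnmt-OE cells (163 of the 180 kept), 170 in mock and 0 for the interaction. For pairing, each library's deviation from its group mean was taken per gene on log CPM, for genes at 10 CPM or more. These deviations correlated at -0.02, 0.06 and 0.07 between same-numbered treated and untreated libraries in labelled Nnmt-OE cells. No pairing by number was seen, but 3 libraries a group cannot exclude a shared culture or day. Uncalled genes turned round without 1 library: Nnmt ran from -0.054 (without treated replicate 1) to 0.251, and Egfl7, an endothelial gene under 3 CPM, from -1.148 to 0.041 (without untreated replicate 1). In 1 set of simulated counts, 30.2% of 63 genes changed 1.5-fold were recovered, so changes of that size or smaller can often be missed in a design like this. Depth was not varied in it.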

Other observations

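The gene families below were drawn up after the values had been seen and carry no test of their own. Over all genes tested 1.4% were called. Of 4 tested genes of Na,K-ATPase, the sodium pump that drives transport across the tubule, 2 fell with TGFβ in labelled Nnmt-OE cells. The β1 subunit gene Atp1b1 averaged 429 ± 4.6 CPM in treated libraries and 712 ± 15.7 CPM in untreated ones (SD, n = 3 each), a log2 change of -0.73 ± 0.08 (edgeR adjusted p = 3.16e-08), kept in all 6 fits without 1 library. Atp1b3 (-0.05) and Fxyd5 (-0.48) did not pass. Of 3 Gadd45 family genes, stress sensors tied to growth arrest, Gadd45g rose, with 237 ± 20.5 CPM treated and 129 ± 0.51 CPM untreated (0.88, edgeR adjusted p = 5.71e-07, kept in all 6 fits). Of 3 tested genes for neurotrophins and their receptors 2 rose, Bdnf among them (0.75, kept in 4 of the 6 fits).

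Genes of the nucleolus, where ribosomes are built, mostly had positive values. Of 37 tested genes for RNA polymerase I and nucleolar factors, 8 rose and 34 were positive (median log2 fold change 0.31, against -0.002 over all genes tested). Over all 12897 genes tested 0.651% rose and 6416 were positive. Ncl, nucleolin, averaged 1637 ± 27.8 CPM treated and 1232 ± 58.8 CPM untreated (0.41, edgeR adjusted p = 0.000402), and Rcl1, an rRNA processing factor, stood at 0.64 (edgeR adjusted p = 0.00218). Both held in all 6 fits. Of the 6 other calls, Rsl1d1 was kept in 5 fits, Lyar in 4, Ddx21 in 3, Mybbp1a in 2, Cd3eap in 1 and Pdcd11 in 0. Of 10 core proteins of small nucleolar ribonucleoproteins, Dkc1, dyskerin (0.59), and Gar1 (0.38, edgeR adjusted p = 0.04997) rose, and 9 were positive. The call of Dkc1 held in all 6 fits and that of Gar1 in 1. In the MYC and MXD network, Mxd4, a MAX partner that opposes MYC, fell by 0.78 (edgeR adjusted p = 9.52e-07) and Txnip, a thioredoxin inhibitor, by 0.58 (edgeR adjusted p = 0.00314), both in all 6 fits, while Myc itself stood at 0.51 (edgeR adjusted p = 0.288). Ribosomal protein genes took a larger share of reads in the same treated libraries (1.03 to 1.07% treated, 0.87 to 0.99% untreated), and its part in these values was not tested. Among 8 tested genes listed for cathepsins and lysosomal proteases, the proteases Ctsd (-0.33) and Tpp1 (-0.37) fell, each kept in 2 of the 6 fits. Cst3, a protease inhibitor on the same list, fell as well (-0.41, kept in 1 fit).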
